A study of Mus musculus with 67 samples.

Results

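The 10 genes described here encode proteins of fatty acid uptake and mitochondrial fatty acid oxidation: Cd36, Fabp5, Cpt1a, Cpt2, Slc25a20, Acadm, Acadl, Acadvl, Hadha and Hadhb. They were named as a pathway, not picked by a measured value, and they are 10 of the 24530 genes quantified in the replicated experiment and 10 of the 24421 symbols of a smaller pilot. The replicated experiment held 59 RNA-seq libraries of T cells sorted from mouse brain. It pooled cells of 5 mice a sample for conventional T cells, per the methods, which do not give the number for its Treg libraries. Its groups crossed 2 strains, C57Bl/6J (BL6 in the labels) and Balb/c (BalbC), with 2 diets, standard diet (SD) and a high-fat, high-sugar diet (HFHS, labelled HFD), 2 tissues, the hypothalamus and the rest brain, and 2 cell types. Activated conventional T cells (Tconv) were sorted as cells positive for CD4, high for CD44, low for CD62L and negative for CD25 and for the Foxp3GFP reporter. Regulatory T cells (Treg) are CD4+ cells that carry the transcription factor Foxp3. Groups held 4 libraries, except for 3 in rest brain Tconv of C57Bl/6J on HFHS diet and of Balb/c on either diet, and 2 in rest brain Treg of Balb/c on SD. Per the methods the C57Bl/6J mice on the diets were male and the Balb/c mice female, with the diet begun at 6 weeks of age, so strain and sex cannot be told apart. The pilot held 8 hypothalamic libraries, 1 a group: CD44low+int T cells and Treg from female Foxp3 GFP Balb/c mice after 16 weeks of HFHS diet or regular diet (9 mice pooled), and CD25- and CD25++ CD4+ cells from female ob/ob and C57Bl/6J WT mice (7 mice pooled).

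Fatty acids enter a cell through carriers such as the scavenger receptor CD36 and are held in the cytosol by fatty acid binding proteins such as FABP5. As acyl-CoA they cross the mitochondrial membranes on carnitine: CPT1A on the outer membrane makes acylcarnitine, the carrier SLC25A20 exchanges it across the inner membrane, and CPT2 returns the acyl-CoA. The acyl-CoA dehydrogenases for very long (ACADVL), long (ACADL) and medium (ACADM) chains then start each turn of beta-oxidation, and the trifunctional protein, built of HADHA and HADHB, finishes it for long chains. Regulatory and memory T cells are known for their use of this pathway, and effector T cells for glycolysis.

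Estimated counts per library totalled 13196689 to 20538309 in hypothalamic Tconv, 11340063 to 28187008 in rest brain Tconv, 8938477 to 24985589 in rest brain Treg and 1724149 to 38482277 in hypothalamic Treg. Genes with more than 10 counts numbered 9018 to 10143, 10246 to 11527, 5438 to 9622 and 2108 to 9905, in the same order, so the hypothalamic Treg libraries detected the fewest. T cell markers (5 of 6 listed were measured) summed to 6440 to 8294 CPM (counts scaled to 1000000 per library) in all Tconv libraries. The rest brain Tconv library of the Balb/c SD pool 42_46 also held 667 CPM of microglial, 471 CPM of oligodendrocyte and 90.9 CPM of neuron markers. The other rest brain Tconv libraries held at most 124, 160 and 8.34 CPM, in the same order. Pool 42_46 was kept under its label. Treg markers summed to 2717 to 4856 CPM in rest brain Treg and to at most 684 CPM in Tconv, but to 73.7 to 4268 CPM in hypothalamic Treg, where Foxp3 fell to 0.0977 CPM in the lowest Balb/c library (SD pool 32_36) and to 0.429 CPM in the lowest C57Bl/6J library (HFHS pool 06_10) and Il2ra was at 0 in 3 of 16. Among the hypothalamic Treg libraries, the C57Bl/6J SD pool 11_15 went against its label, with 167 CPM of T cell markers and 8165 CPM of endothelial markers, and the Balb/c SD pool 32_36 held 20488 CPM of microglial markers beside 4134 CPM of T cell markers. The C57Bl/6J HFHS pool 06_10 held 7036 CPM of T cell and 3193 CPM of Treg markers and was kept under its label. The tests of the 10 genes that use the pools 11_15 and 32_36 were also run without them, and those of the wider pathway were not. In such bulk samples fewer cells of a type and less RNA per cell cannot be told apart, and the p-values below measure the spread between libraries, each from a pool of mice. The main fits that span cell types or tissues entered libraries with the same pool label as separate samples.

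On the mouse genome build GRCm38.p6, the carriers lie apart: Cd36 at chr5:17781690-17888959, Fabp5 at chr3:10012585-10016610, Cpt1a at chr19:3322326-3385735, Cpt2 at chr4:107903982-107923589 and Slc25a20 at chr9:108662136-108684642. Acadm lies at chr3:153922353-153944643, Acadl at chr1:66830839-66863309 and Acadvl at chr11:70010183-70015428. Hadha (chr5:30119423-30154980) and Hadhb (chr5:30155253-30184593) point away from each other, with 272 bases between their annotated starts. Annotated genes on either strand overlap Cpt1a (Gm36532), Acadl (Gm15793 and Gm27934), Acadvl (Mir324) and Hadhb (Mir1960), and reads from such overlaps could not be told apart here.

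An 85-base stretch between Hadha and Hadhb and the 250 bases before Acadvl are printed because Hadha and Acadvl were called together below while Hadhb was not. Both come from RefSeq on GRCm38.p6, at chr5:30155163-30155247 on the plus strand and chr11:70015429-70015678 on the minus strand. Capitals mark GGGCGG, the GC box, in the first and AGGTCA, the core site of nuclear receptors, in the second.
Hadha-Hadhb: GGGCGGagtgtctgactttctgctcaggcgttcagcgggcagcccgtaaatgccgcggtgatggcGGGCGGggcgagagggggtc
Acadvl: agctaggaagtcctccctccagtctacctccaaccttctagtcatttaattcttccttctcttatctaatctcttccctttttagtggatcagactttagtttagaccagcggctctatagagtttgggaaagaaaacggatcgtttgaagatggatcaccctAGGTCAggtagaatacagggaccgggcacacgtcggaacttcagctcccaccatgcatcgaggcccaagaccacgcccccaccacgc

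Both motifs were searched on both strands from 250 bases before to 50 bases after each start, in 32851 RefSeq promoters. GGGCGG was present in 35.7% of all promoters and in 7 of the 9 members with an entry (Cd36, Cpt1a, Cpt2, Slc25a20, Acadl, Hadha and Hadhb). AGGTCA was present in 16.3% of all promoters and in 4 of the 9 (Cd36, Cpt1a, Acadm and Acadvl). The direct repeat of the core site with 1 base between its copies (0.381% of promoters) and the extended core site TCAAGGTCA (0.423%), which overlaps AGGTCA, matched none of the 9. CCAAT matched Cd36 and Cpt1a, against 37.4% of all promoters.

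Per length, in TPM (the scale of CPM after division by transcript length), the pathway ran from the abundant thiolase subunit to a carrier near 0. In hypothalamic Tconv the mean level was 149 ± 27.5 TPM for Hadhb (SD, n = 16), 91.0 ± 27.9 for Acadl, 58.2 ± 24.2 for Fabp5, 57 ± 19.9 for Acadm and 48.0 ± 16.9 for Acadvl. Lower levels were found for Hadha at 21.9 ± 9.89 TPM, Slc25a20 at 19.9 ± 15.6, Cpt1a at 7.48 ± 6.65 and Cpt2 at 6.20 ± 5.43. In that order, the ranges of mean ± SD did not overlap between Hadhb and Acadl or between Cpt2 and Cd36, and those of all other neighbours overlapped. Hadha and Hadhb, the subunits of 1 complex, stood at opposite ends of the oxidation enzymes in this order.

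Rest brain Tconv gave nearly the same order, with Hadhb at 139 ± 50.6 TPM (SD, n = 13), Acadl at 81.9 ± 30.7, Fabp5 at 53.3 ± 20.3, Acadm at 44.8 ± 11.7 and Acadvl at 31.3 ± 23.0. Slc25a20 followed at 16.4 ± 7.98 TPM, Hadha at 13.2 ± 9.82, Cpt2 at 5.71 ± 4.82 and Cpt1a at 5.23 ± 3.01. Here Cpt1a and Cd36 were the only neighbours whose ranges of mean ± SD did not overlap. Rest brain Treg had Hadhb at 188 ± 78.8 TPM (SD, n = 14), and the ranges of all neighbours in the order overlapped. Hypothalamic Treg had the widest spread, with Hadhb at 167 ± 248 TPM and Fabp5 at 70.9 ± 111 TPM (SD, n = 16).

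**Figure D1:**
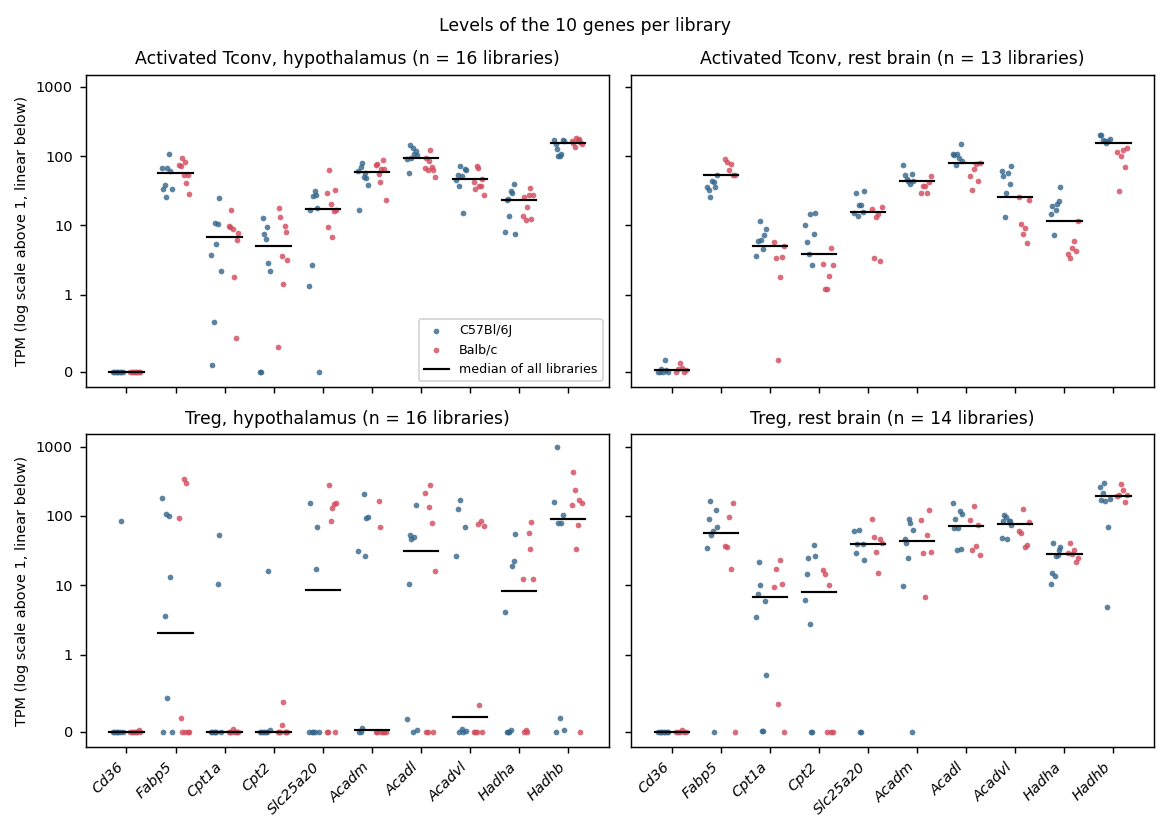
TPM of each of the 10 genes (log scale above 1, linear below) in every library, by cell type and tissue, with C57Bl/6J in blue and Balb/c in red and a bar at the median of all libraries. Hadhb is highest and Cd36 lies at or near 0 in every panel but for 1 hypothalamic Treg library, and hypothalamic Treg values split between values at or near 0 and high values.

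Cd36 had no read in any of the 16 hypothalamic Tconv libraries, where 3 counts correspond to 0.146 to 0.227 CPM, the level that a count of 0 allows. In the 13 rest brain Tconv libraries it ranged from 0 to 0.434 CPM. Among Treg it was at 0 in all but 3 libraries: 0.0549 CPM in a rest brain library, 0.0591 CPM in a hypothalamic library and 224 CPM in the hypothalamic C57Bl/6J SD pool 11_15, whose endothelial markers are given above. Endothelial cells and macrophages are known to express Cd36, and the part of these cells in that value was not tested.

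Fabp5, the binding protein, was present in every Tconv library, from 16.5 to 71.3 CPM in the hypothalamus (median 33.6) and from 17.2 to 72.2 CPM in the rest brain (median 29.7). A single RefSeq transcript, NM_010634, took 99.4% of its reads. Processed copies of Fabp5 exist in the mouse genome, and a split of reads with them was not tested.

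The carnitine shuttle was low, and uneven in the hypothalamus. In hypothalamic Tconv Cpt1a ranged from 0.310 to 70.1 CPM (median 24.4), Cpt2 from 0 to 34.2 CPM (median 9.20) and Slc25a20 from 0 to 82.8 CPM (median 22.1). In rest brain Tconv the ranges were narrower, at 0.701 to 43.7 CPM for Cpt1a (median 20.3), 2.97 to 26.9 CPM for Cpt2 (median 7.48) and 5.94 to 38 CPM for Slc25a20 (median 24.5). The SD within groups on the log2(CPM + 1) scale was 1.64 for Cpt1a, 1.81 for Cpt2 and 1.69 for Slc25a20 in hypothalamic Tconv, above the medians of 1.21, 1.51 and 1.16 for all genes of like level. In rest brain Tconv Cpt1a was above such genes too (1.13 beside 0.76), and Cpt2 (0.77 beside 0.96) and Slc25a20 (0.56 beside 0.67) were below them.

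Of the enzymes of the oxidation spiral, Acadl ranged from 75.1 to 213 CPM in hypothalamic Tconv (median 140) and from 68.2 to 210 CPM in rest brain Tconv (median 134). Hadhb ranged from 154 to 293 CPM (median 240) and from 67.9 to 311 CPM (median 245). In hypothalamic Tconv their SD within groups was 0.41 and 0.28 on the log2(CPM + 1) scale, beside medians of 0.41 and 0.34 for genes of like level, while Acadm (0.71 beside 0.49) and Hadha (0.71 beside 0.57) spread more than such genes. In rest brain Tconv Acadvl (0.68 beside 0.49), Hadhb (0.42 beside 0.27) and Acadl (0.36 beside 0.31) did so. Acadm, the medium-chain enzyme, ranged from 25.2 to 141 CPM in the hypothalamus and from 57.1 to 114 CPM in the rest brain.

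Strain differences in activated Tconv asked whether the pathway stands at another level in female Balb/c than in male C57Bl/6J mice. In the rest brain 3 of the 9 members tested were called (adjusted p under 0.05, edgeR): Fabp5 was 2.93-fold higher in Balb/c, and Acadvl and Hadha were 2.29-fold and 2.25-fold lower. Cd36 was too low to test. Of all 12287 genes tested 23.5% were called, 12.2% higher and 11.3% lower in Balb/c, so strain calls were common among all genes as well. The median log2 fold change was -0.29 over the members and -0.03 over all genes.

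Fabp5 stood at 29.7, 22.3 and 21.5 CPM in the C57Bl/6J HFHS pools and at 27.9, 17.2, 27.5 and 19.7 CPM in the SD pools. In Balb/c it stood at 52.9, 48.6 and 72.2 CPM on HFHS diet and at 61.1, 70.2 and 38.9 CPM on SD. Every Balb/c library was above every C57Bl/6J library, with means of 57.3 ± 13.0 (SD, n = 6) and 23.7 ± 4.74 CPM (SD, n = 7). The log2 fold change was 1.55 (SE 0.25, adjusted p = 0.000231, edgeR).

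Acadvl, which opens oxidation of the longest chains, stood at 109, 102 and 64.5 CPM in C57Bl/6J on HFHS diet and at 104, 24.0, 49.5 and 84.1 CPM on SD. The Balb/c values were 17.3, 13.5 and 24.8 CPM on HFHS diet and 19.2, 52.3 and 45.3 CPM on SD. The strains overlapped, since 2 C57Bl/6J SD pools lay within the Balb/c range. The log2 fold change was -1.20 (SE 0.36, adjusted p = 0.0212, edgeR), and the call was lost without the C57Bl/6J SD pool 01_05 (adjusted p = 0.0518) or the Balb/c HFHS pool 15_21 (0.0543).

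Hadha, the subunit with hydratase and dehydrogenase activity, stood at 100, 44.9 and 67.2 CPM in C57Bl/6J on HFHS diet and at 69.0, 24.0, 52.3 and 57.8 CPM on SD. In Balb/c it stood at 19.7, 18.9 and 14.6 CPM on HFHS diet and at 22.8, 14.5 and 41.1 CPM on SD. A single C57Bl/6J SD pool lay within the Balb/c range. The log2 fold change was -1.17 (SE 0.32, adjusted p = 0.0109, edgeR) and was called in all 13 fits that left out 1 library. Its partner Hadhb, read from the other side of the shared start region, gave -0.29 (SE 0.19, adjusted p = 0.301).

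The other members gave log2 fold changes of -1.12 for Cpt2 (adjusted p = 0.175), -0.43 for Cpt1a (0.631), -0.25 for Slc25a20 (0.691), 0.21 for Acadm (0.506) and -0.19 for Acadl (0.509), none called by edgeR. Beside these calls, and although CD8a was among the exclusion markers of the study's flow cytometry, CD8 T cell markers summed to 276 to 479 CPM in the Balb/c libraries (median 348) and to 1.94 to 736 CPM in C57Bl/6J (median 39.8). The defining macrophage markers Lyz2, Adgre1 and Mrc1 had medians of 0 in both strains, and Itgam a median of 0 in C57Bl/6J and 0.0791 CPM in Balb/c. Ccr2, on the same list and also a gene of activated T cells, was at 234 to 383 CPM in Balb/c and 112 to 299 CPM in C57Bl/6J. The part of CD8 T cells in the strain differences was not tested.

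**Figure D2:**
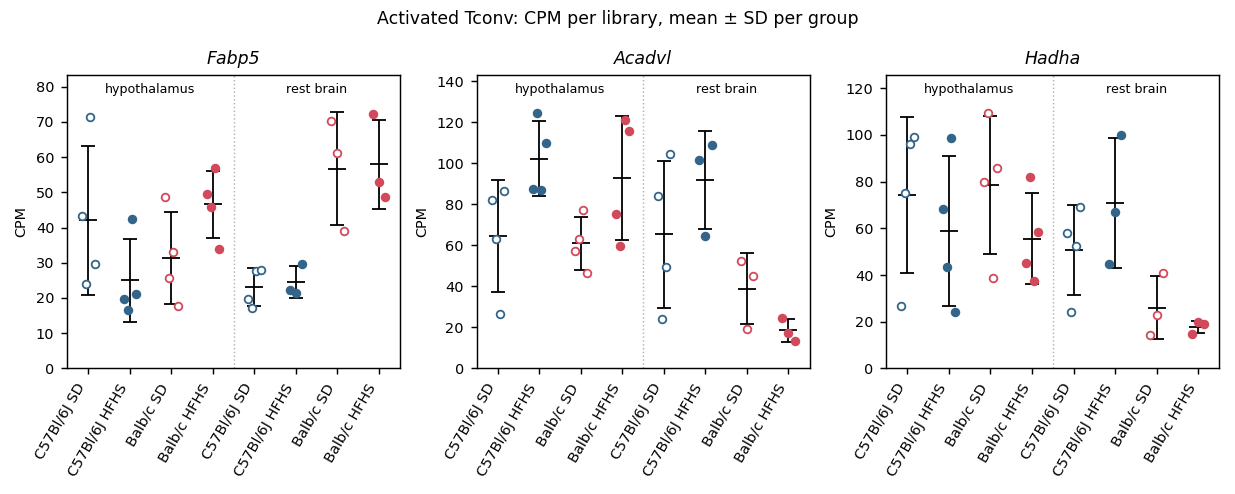
CPM of Fabp5, Acadvl and Hadha in every activated Tconv library by tissue, strain and diet (open circles SD, filled circles HFHS), with the mean and SD of each group. In the rest brain the Balb/c libraries sit above the C57Bl/6J libraries for Fabp5 and mostly below them for Acadvl and Hadha, while in the hypothalamus the strains overlap for all 3 genes.

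In hypothalamic Tconv none of the 9 members tested was called between strains, against 2.1% of 10875 genes, and 1 had an unadjusted p under 0.05 (Acadl, log2 fold change -0.46, SE 0.19, adjusted p = 0.396, edgeR). DESeq2 and limma-voom called none either. Fabp5 gave 0.22 (SE 0.37), Acadvl -0.12 (SE 0.23) and Hadha -0.00 (SE 0.32). Fabp5 stood at 19.8, 16.5, 42.4 and 21.2 CPM in C57Bl/6J on HFHS diet and at 43.2, 24.0, 71.3 and 29.8 CPM on SD, against 49.5, 45.7, 57 and 34 CPM and 48.6, 25.7, 33.2 and 17.8 CPM in Balb/c. The strains overlapped on either diet.

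The difference between the tissues in this strain effect was tested after the strain results had been seen. Of the 9 members 1, Fabp5, was called, its strain effect on the log2 scale being lower in the hypothalamus than in the rest brain by 1.34 (difference -1.34, SE 0.44, adjusted p = 0.0459, edgeR), against 10.4% of 12833 genes. The call sat close to the threshold: it was lost with the looser filter of more than 10 counts in total (adjusted p = 0.0932) and in 14 of 20 fits that left out 1 pool, and the adjusted p then ranged from 0.0262 to 0.101 over all 20. For Hadha the difference was 1.22 (adjusted p = 0.086), for Acadvl 1.04 (0.144) and for Hadhb 0.61 (0.114), none called.

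In Treg no member was called between strains in either tissue. In the rest brain 0 of 9 were called by edgeR, DESeq2 and limma-voom alike, with 0 at an unadjusted p under 0.05, against 0.299% of 11711 genes. In the hypothalamus, where Cd36, Cpt1a and Cpt2 were too low to test, 0 of 7 were called by the same 3 tools, with 0 at an unadjusted p under 0.05 in edgeR, against 0.0389% of 7715 genes. The same held for hypothalamic Treg in edgeR without the 2 libraries with other cells' markers. Fabp5 in rest brain Treg gave -1.10 (SE 1.48), an error several times that in Tconv.

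Comparing Treg with activated Tconv, 2 of the 9 members tested in the rest brain were called, both higher in Treg, against 15% of 13956 genes called and 3.98% called higher. Acadvl was 2.17-fold higher (log2 fold change 1.12, SE 0.29, adjusted p = 0.00729, edgeR), with 51.6 to 185 CPM in 14 Treg libraries (median 121) and 13.5 to 109 CPM in 13 Tconv libraries (median 49.5). Hadha was 1.95-fold higher (0.97, SE 0.31, adjusted p = 0.0333), with 29.4 to 121 CPM (median 82.2) and 14.5 to 100 CPM (median 41.1). The cell types overlapped for both genes.

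Of the other members, Slc25a20 gave a log2 fold change of 0.77 (SE 0.70), Cpt2 0.69 (SE 0.96), Cpt1a 0.24 (SE 0.83), Hadhb 0.09 (SE 0.30), Fabp5 -0.07 (SE 0.71), Acadm -0.21 (SE 0.51) and Acadl -0.50 (SE 0.26, adjusted p = 0.239). Since Treg and Tconv libraries carry shared pool labels, the pool was also fitted as a replicate block, and then neither gene was called, at log2 fold changes close to those without it (Acadvl 1.08, adjusted p = 0.0729; Hadha 0.98, adjusted p = 0.128). Within Balb/c the log2 fold change was 1.69 for Acadvl (adjusted p = 0.0149) and 1.71 for Hadha (0.00529), with 2404 of 12961 genes called, and within C57Bl/6J 0.73 (0.405) and 0.37 (0.896), with 408 of 11470 called. The interaction of strain and cell type called 0 of 9 members against 4.8% of 13956 genes, with 1 at an unadjusted p under 0.05 (Hadha, 1.29, adjusted p = 0.215), while DESeq2 called Hadha (adjusted p = 0.0312) and limma-voom none. The call of Hadha between cell types was lost in limma-voom (adjusted p = 0.0641) and without any of 6 pools: C57Bl/6J HFHS 77_80 and Balb/c HFHS 15_21, 16_20 and 47_25 and SD 32_36 and 37_41. Markers moved with the cell type too: CD8 T cell markers summed to at most 78.5 CPM in Treg (median 21.5) and to a median of 276 CPM in Tconv, with CD8a an exclusion marker in the study's flow cytometry, and their part was not tested. Among Treg libraries with more than 8000 genes alone, Acadvl (adjusted p = 0.013), Hadha (0.0493) and Slc25a20 (1.22, adjusted p = 0.0308) were called, among 3656 of 15729 genes called.

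**Figure D3:**
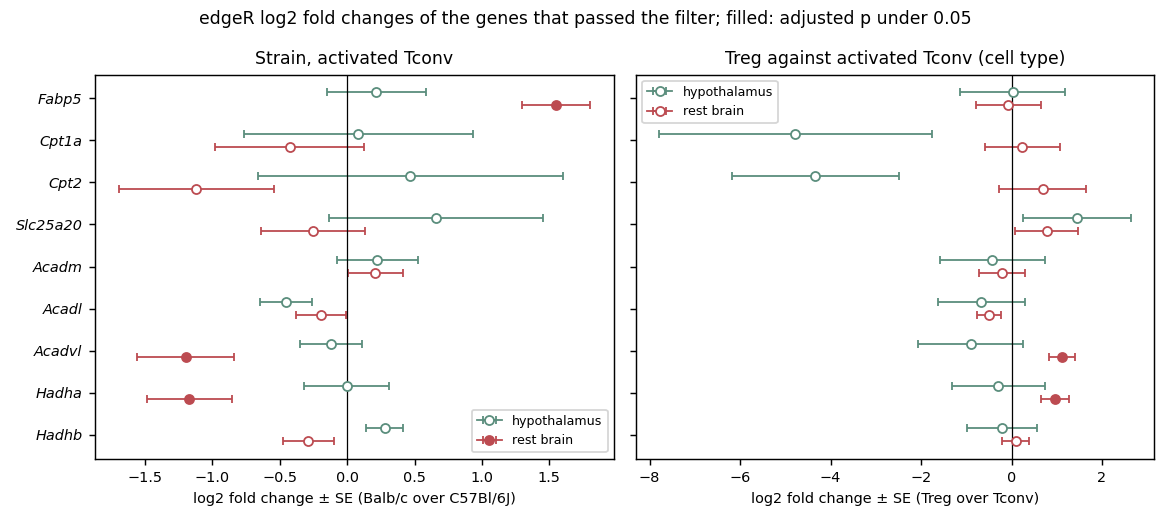
edgeR log2 fold changes with SE for the 9 genes tested, between strains in activated Tconv (left) and between Treg and activated Tconv (right), in the hypothalamus (green) and the rest brain (red), with filled points at adjusted p under 0.05. Filled points are Fabp5, Acadvl and Hadha on the left and Acadvl and Hadha on the right, all in the rest brain, and the hypothalamic Treg errors are the widest.

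Between the tissues, 1 of the 9 members tested in activated Tconv was called, against 16.8% of 12833 genes called and 5.66% called higher in the hypothalamus. Hadha was 1.68-fold higher in the hypothalamus (log2 fold change 0.75, SE 0.26, adjusted p = 0.0426, edgeR), with 24.2 to 110 CPM there (median 71.7, n = 16) and 14.5 to 100 CPM in the rest brain (median 41.1, n = 13). The ranges overlapped. Acadvl gave 0.60 (SE 0.25, adjusted p = 0.1), and the other 7 members lay between -0.12 and 0.30.

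This call of Hadha was not kept with the pool as a replicate block (log2 fold change 0.75, adjusted p = 0.212) or by limma-voom (0.71, 0.0528), although the size stayed nearly the same, and it was lost in 12 of 20 fits that left out 1 pool, with an adjusted p of up to 0.095 (Balb/c SD pool 32_36 left out). In Balb/c alone Hadha (adjusted p = 0.00273), Acadvl (0.0128) and Fabp5 (0.0144) were called, with log2 fold changes of 1.34, 1.17 and -0.89, among 3014 of 11813 genes called there. In C57Bl/6J alone the values were 0.19, 0.08 and 0.50, none called, and 1 of 11486 genes was called. The strain, cell type and tissue comparisons in which Acadvl and Hadha differ all use the 6 Balb/c Tconv libraries of the rest brain, so they are not separate evidence.

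Hypothalamic Treg libraries detected few of the members. With more than 10 counts as detection, 1 to 10 members were detected in the 16 libraries (median 4), and 12 libraries held 5 or fewer. Rest brain Treg held 5 to 9 (median 9, n = 14), hypothalamic Tconv 7 to 9 and rest brain Tconv 9 in all 13 libraries. The number followed the number of all genes detected in a library, as the plot of members against genes shows, and was not tested further.

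**Figure D4:**
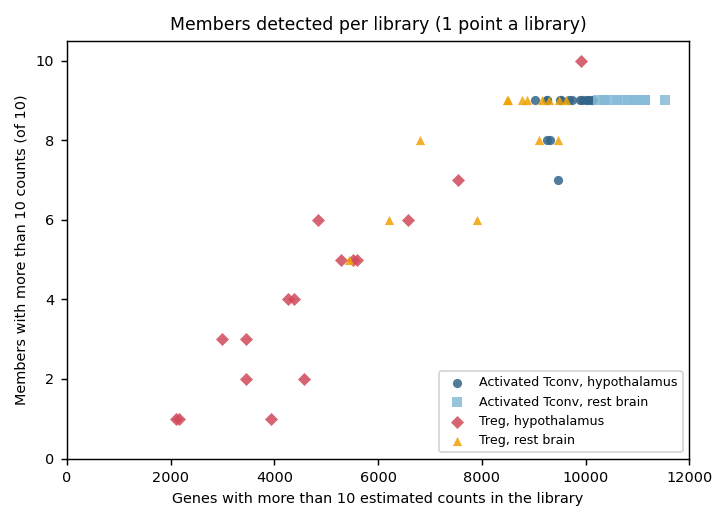
Members with more than 10 counts (of 10) against all genes with more than 10 counts, 1 point a library, by cell type and tissue. Hypothalamic Treg libraries (red diamonds) fall to 1 member in libraries with the fewest genes, and the library with 10 members is the C57Bl/6J SD pool 11_15.

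Within this group the same gene stood at 0 in some pools and high in others. Hadhb was at 236, 1520, 148 and 0.0274 CPM in C57Bl/6J on SD, at 0, 120, 0.343 and 128 CPM on HFHS diet, at 219, 742, 350 and 0 CPM in Balb/c on SD and at 54.4, 107, 258 and 240 CPM on HFHS diet. It was the member detected most often, in 12 of 16 libraries. Cpt1a, the entry step of the shuttle, was above 0 in 3 libraries: 171 CPM in the C57Bl/6J SD pool 11_15, 37.3 CPM in the C57Bl/6J HFHS pool 72_76 and 0.114 CPM in the Balb/c HFHS pool 16_20. Cpt2 reached 27.0 CPM in pool 11_15 and at most 0.657 CPM in the other 15.

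Against hypothalamic Tconv, 0 of 9 members were called in these Treg by edgeR, against 7.73% of 11283 genes, with 1 at an unadjusted p under 0.05 (Cpt2, log2 fold change -4.33, SE 1.85, adjusted p = 0.19). DESeq2 called 1 (Cpt2), limma-voom 8 and the fit with the pool as a replicate block 3 (Cpt1a, Cpt2 and Acadm), all lower in Treg. Without the 2 libraries with other cells' markers Cpt2 and Cpt1a were called lower (adjusted p = 0.000301 and 0.0146, edgeR). That fit called 1515 of 11519 genes, 1438 of them lower. Under the block the median log2 fold change of all genes moved from -0.60 to -4.88, and Cpt1a stood at -9.65, Cpt2 at -8.88 and Acadm at -9.07. Over all 11283 genes, DESeq2 called 1605, limma-voom 7329 and the block 5543.

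Against rest brain Treg, 0 of 9 members were called in hypothalamic Treg by edgeR, against 4.93% of 12602 genes, with 1 at an unadjusted p under 0.05 (Cpt2, -4.95, SE 2.01, adjusted p = 0.187). DESeq2 called 2 (Cpt1a and Cpt2, with 1197 of all genes), limma-voom 6 (4734 of all genes) and the replicate block 0 (0 of all genes). Without the 2 libraries Cpt2 was called (adjusted p = 0.00832, edgeR), among 1106 of 12141 genes called. The interaction of cell type and tissue called 0 of 9 against 12.9% of 14764 genes, with 1 at an unadjusted p under 0.05 (Cpt2, -4.63, SE 1.88, adjusted p = 0.102). It called Cpt2 without the 2 libraries (adjusted p = 0.000307, edgeR), among 1773 of 14511 genes called. With the replicate block it called Cpt1a (0.00801) and Cpt2 (0.00911), among 1241 of 14764 genes called.

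The diet comparison asked whether HFHS feeding moves these genes within a sorted population, and no member was called by edgeR in any of the 4 populations. The counts were 0 of 9 in hypothalamic Tconv, 0 of 9 in rest brain Tconv, 0 of 7 in hypothalamic Treg and 0 of 9 in rest brain Treg, against 0% of all genes in each. At an unadjusted p under 0.05 the members numbered 1, 0, 0 and 0. DESeq2 called 1 (Acadvl in hypothalamic Treg, adjusted p = 0.0284) and limma-voom 0, and without the 2 libraries named above edgeR called 0 in hypothalamic Treg.

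Acadvl in hypothalamic Tconv had the lowest unadjusted p. On HFHS diet it stood at 87.5, 87.1, 125 and 110 CPM in C57Bl/6J and at 59.6, 121, 75.4 and 116 CPM in Balb/c. On SD it stood at 86.3, 82.2, 26.7 and 63.1 CPM and at 46.5, 63.0, 57.2 and 77.1 CPM. The diets did not overlap in C57Bl/6J, where the nearest values were 87.1 and 86.3 CPM, and overlapped in Balb/c. The share of all genes with such a separation was not counted. The log2 fold change of 0.67 (SE 0.23) had an adjusted p of 1 (edgeR).

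The errors say how small a diet effect these data could show. In hypothalamic Tconv the log2 fold change was -0.01 (SE 0.14) for Hadhb, -0.03 (SE 0.19) for Acadl, -0.06 (SE 0.37) for Fabp5, 0.34 (SE 0.85) for Cpt1a and 0.04 (SE 1.13) for Cpt2. In rest brain Tconv it was -0.27 (SE 0.19) for Hadhb, -0.01 (SE 0.19) for Acadl, 0.35 (SE 0.20) for Acadm and 0.13 (SE 0.25) for Fabp5. In hypothalamic Treg the smallest SE was 1.56, for Hadhb, so a change of several-fold would not have been detectable there.

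Whether the diet effect differs between the strains was tested by the interaction, which called no member in any population. In hypothalamic Tconv 0 of 9 were called against 0% of genes, and Cpt1a gave 2.40 (SE 1.53), with 0.310 to 38.9 CPM on HFHS diet and 2.29 to 70.1 CPM on SD in C57Bl/6J and 32 to 58.1 CPM and 1.57 to 27.6 CPM in Balb/c. The Balb/c values did not overlap between the diets, and the C57Bl/6J values did. How many of all genes separate in this way was not counted, so the separation is a description. In rest brain Tconv 0 of 9 were called against 0.61% of 12287 genes (75 genes, and 0 to 224 with 1 library left out), and in rest brain Treg 0 of 9 against 0%. In these 3 populations no member had an unadjusted p under 0.05 in edgeR, and DESeq2 and limma-voom called none.

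In hypothalamic Treg the interaction called 0 of 7 against 0% of genes by edgeR, with 1 at an unadjusted p under 0.05, Acadvl (adjusted p = 0.261), which DESeq2 called and limma-voom did not. Without the 2 libraries edgeR called none either. Acadvl was at 138, 0.537, 137 and 124 CPM in Balb/c on HFHS diet and at 0 in all 4 Balb/c SD libraries. In C57Bl/6J it was at 241, 277, 0.0858 and 0 CPM on HFHS diet and at 41.6, 0, 109 and 0.0274 CPM on SD. Each Balb/c library on HFHS diet lay above those on SD, 1 of them with 9 reads in all, and the C57Bl/6J diets overlapped. Such a separation was not counted over all genes.

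Of 73 other genes of the pathway (uptake and activation, carnitine shuttle, beta-oxidation, peroxisomal enzymes and regulators), 72 were measured. In the strain comparison of rest brain Tconv 11 of 59 tested were called, 3 higher and 8 lower in Balb/c, a share below the 23.5% of all genes, with a median log2 fold change of -0.42 beside -0.03 for all genes. Acaa1a, a peroxisomal thiolase, fell by 2.43 (adjusted p = 0.000145, edgeR), from 64.0 to 110 CPM in C57Bl/6J to 5.36 to 34.1 CPM in Balb/c, but its near-identical copy Acaa1b makes its reads uncertain. Dbi, the acyl-CoA binding protein, rose by 1.07 (adjusted p = 0.000228), from 107 to 139 CPM to 158 to 261 CPM. Decr2, a peroxisomal dienoyl-CoA reductase, was lower (6.57 to 39.6 CPM in C57Bl/6J and 0.297 to 4.74 CPM in Balb/c, adjusted p = 0.000689), as were Crot, the carnitine octanoyltransferase of peroxisomes (190 to 335 CPM in C57Bl/6J and 49.3 to 167 CPM in Balb/c, adjusted p = 0.000854), and Slc27a6, a fatty acid transport protein (1.40 to 14.7 CPM in C57Bl/6J and at most 0.617 CPM in Balb/c, adjusted p = 0.00336), while Scp2, a peroxisomal lipid carrier, was higher (log2 fold change 0.78, adjusted p = 0.00127). In hypothalamic Tconv 1 of 53 was called (2.1% of all genes), again Acaa1a (-1.14, adjusted p = 0.0148).

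Between tissues the strain effect differed for 2 of 61 (10.4% of all genes), Dbi (-1.13, adjusted p = 0.00387, edgeR) and Scp2 (-0.69, adjusted p = 0.03). Between cell types in the rest brain 9 of 66 were called, 1 higher and 8 lower in Treg, near the 15% of all genes. Hif1a, the hypoxia-inducible regulator, was higher (log2 fold change 1.09, adjusted p = 5.29e-05; 0.000733 with the replicate block). Lower were Slc27a6, Ppara, a nuclear receptor for fatty acids, Acacb, an acetyl-CoA carboxylase, Slc27a5, a fatty acid transport protein, and Fabp3, the heart-type binding protein, with adjusted p of 0.00112, 0.000929, 0.00248, 0.00831 and 0.0124. Slc27a5 and Fabp3 were not called with the block (0.0674 and 0.0612). Levels were low throughout: Slc27a6, Acacb and Slc27a5 were at 0 in every rest brain Treg library, and Ppara and Fabp3 reached at most 0.0581 and 0.329 CPM there. In rest brain Tconv their medians were 1.40 (Slc27a6), 0.471 (Ppara), 0.264 (Acacb), 0 (Slc27a5) and 0 CPM (Fabp3), and no fold is given. The strain by cell type interaction called 3 of 66 (4.8% of all genes): Acad12, an acyl-CoA dehydrogenase family member at a median of 0 CPM in either cell type (adjusted p = 0.0126), Acaa1a (2.24, 0.0299) and Dbi (-1.27, 0.0333).

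Between tissues in Tconv 11 of 61 were called, 4 higher and 7 lower in the hypothalamus, near the 16.8% of all genes. Among those with the smallest p, the thiolases Acaa2 (log2 fold change 0.63, adjusted p = 0.00183, edgeR) and Acaa1a (1.13, 0.00283) were higher, and Ppara (at most 0.821 CPM in any Tconv library), the coactivator Ppargc1a (at most 0.93 CPM), the acyl-CoA synthetase Acsl3 (median 0 CPM in the hypothalamus and 5.86 CPM in the rest brain) and Dbi (log2 fold change -0.68) were lower. None of these 6 was called with the replicate block (adjusted p 0.0544 to 0.116). In the hypothalamus 5 of 57 were called between cell types (7.73% of all genes), all lower in Treg: the transport proteins Slc27a1, Slc27a4 and Slc27a6, Acad10 of the acyl-CoA dehydrogenase family and Pccb, a propionyl-CoA carboxylase subunit, all 5 called with the block too, which called 5543 of 11283 genes. Their levels were low, with medians in hypothalamic Tconv of 8.57 (Slc27a1), 6.81 (Slc27a4), 0 (Slc27a6), 1.89 (Acad10) and 18.9 CPM (Pccb). In hypothalamic Treg each had a median of 0. Of Treg between tissues 6 of 58 (4.93% of all genes) were lower in the hypothalamus (Acad10, Slc27a4, Pccb, Cpt1c, Slc27a1 and Ppargc1b), none called with the block, which called 0 genes. In rest brain Treg their medians were 0 (Acad10), 0.0219 (Slc27a4), 15.1 (Pccb), 0 (Cpt1c), 10.8 (Slc27a1) and 22.4 CPM (Ppargc1b). All 6 had a median of 0 in hypothalamic Treg. The cell type by tissue interaction called 11 of 68 (12.9% of all genes), 5 positive and 6 negative. Those with the smallest p were Ppara and Fabp4, both positive, and Pccb, Acad10, Slc27a4 and Slc27a1, all negative (adjusted p 0.000113 to 0.00336, edgeR). Acad10, Fabp4 and Slc27a4 were not called with the block (0.0929, 0.0804 and 0.0672). Ppara and Fabp4 had a median of 0 CPM in Treg of either tissue, and no fold is given. No pathway gene was called for diet, strain by diet or strain in Treg.

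Across the 29 Tconv libraries the members did not vary as 1 group. The 36 pairs of the 9 detected members had a median Pearson r of 0.05 (lowest -0.46, highest 0.36) on the log2(CPM + 1) scale. Hadha and Hadhb, subunits of 1 complex, had r = 0.07. Acadvl and Hadha had r = -0.63 over the 16 hypothalamic and 0.73 over the 13 rest brain libraries. These libraries share strains, diets and in part pool labels, so the correlations are descriptions.

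Among 10791 genes, those most like Fabp5 over the same 29 libraries were 0610009B22Rik (r = 0.77), Atp5mpl (0.76) and Gm6654 (0.76). Among those most like Cpt1a were Tapt1 (r = 0.72) and Brf2 (0.68). For Hadha they were Ikbkb (r = 0.81), Frmd8 (0.79) and Fmnl1 (0.77). The values within tissues differed for some, as for Brf2 (0.75 in the hypothalamus and 0.45 in the rest brain).

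The pilot had 1 library a group and no replicate check, so its values compare libraries, not conditions. Counts on genes ranged from 99925 to 5334511 a library, 0.391% to 17.1% of all reads. A ratio was taken for genes that passed 20 normalized reads in either library of a pair, with a 95% exact interval for counting error alone, and a 0 was set to 3 counts. Each bound given for a ratio to 0 rests on that floor and leaves out the counting error of the other library. The minimum favours genes that are high in 1 library, so the counts of members past 2-fold are in part set by the filter and are given beside the same share over all genes. With more than 20 normalized reads required in both libraries, no member was left in 3 of the 4 pairs, and in Treg 2 were left, 1 of them past 2-fold.

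In CD44low+int cells 7 members passed the minimum, and between the HFHS and the regular diet library 4 were past 2-fold higher and 3 lower, beside 61.9% of 6686 genes (24.8% higher and 37% lower). Cpt1a had 232 reads against 24, 16.5-fold higher (10.8 to 26.2). Acadm had 190 against 68, 4.76-fold higher (3.59 to 6.38), Slc25a20 97 against 75, 2.20-fold higher (1.61 to 3.02), and Fabp5 103 against 0, at least 58.5-fold higher. Acadvl had 28 against 271 reads, 5.68-fold lower (3.84 to 8.71), Cd36 0 against 88, at least 17.2-fold lower, and Cpt2 0 against 86, at least 16.8-fold lower. Scaled by total counts, Slc25a20 lay within 2-fold. T cell markers summed to 14592 CPM on HFHS diet and 5375 CPM on regular diet, and macrophage markers to 201 and 49.2 CPM. Oligodendrocyte markers summed to 67.6 and 274 CPM and endothelial markers to 58.9 and 107 CPM. The part of these differences in the ratios was not tested.

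In pilot Treg 5 members passed the minimum and 4 were past 2-fold, 3 of these with 0 reads in 1 library, beside 80.5% of 5445 genes (48.2% higher and 32.3% lower on HFHS diet). Cpt1a had 51 against 702 reads, 16.5-fold lower (12.4 to 22.4), the opposite direction to CD44low+int cells. Slc25a20 had 183 against 0, at least 50.8-fold higher, Acadvl 58 against 0, at least 16.1-fold higher, and Hadha 0 against 46, at least 18.4-fold lower. Acadm was within 2-fold (188 against 83 reads, 1.89-fold higher, 1.45 to 2.47). Markers differed between these libraries too. Macrophage markers summed to 752 CPM on HFHS diet and 0 on regular diet, astrocyte markers to 34.0 and 730 CPM, and B cell markers to 0 and 222 CPM. Treg markers summed to 3660 and 6058 CPM. The part of other cells in these ratios was not tested.

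Between ob/ob and WT CD25- cells 5 members passed the minimum, each through 1 library alone, and were past 2-fold, beside 89.9% of 6440 genes (61.4% higher and 28.5% lower in ob/ob). Acadvl (166 reads against 0, at least 7.10-fold), Acadm (147 against 0, at least 6.28-fold), Hadha (67 against 0, at least 2.86-fold) and Slc25a20 (52 against 0, at least 2.22-fold) were higher in ob/ob. Acadl had 9 against 115 reads, 99.6-fold lower (50.7 to 223). The WT CD25- library held 220336 counts and went against its label, with 2918 CPM of Treg markers. These markers summed to 1214 CPM in ob/ob CD25- and to 2302 CPM in ob/ob CD25++ cells. Macrophage markers were at 0 CPM in WT CD25- and 243 CPM in ob/ob CD25- cells. The part of these cells in the ratios was not tested. In CD25++ cells 4 passed the minimum, each through the WT library alone, and were past 2-fold lower in ob/ob after scaling by size factors, beside 91.4% of 5978 genes (24.8% higher and 66.6% lower): Acadl (0 against 2092 reads), Acadm (0 against 223), Hadha (0 against 121) and Acadvl (0 against 98). The ob/ob CD25++ library held 99925 counts in all, so that 3 counts there equal 30 CPM, beside 392 (Acadl), 41.8 (Acadm), 22.7 (Hadha) and 18.4 CPM (Acadvl) in the WT library. The lower level of Hadha and Acadvl therefore rests on the size factors and was not detectable by total counts, and no bound is given for these 4. In addition, the WT CD25++ library went against its label, with 34471 CPM of microglial markers and 87.4 CPM of T cell markers. The part of these in the values was not tested.

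**Figure D5:**
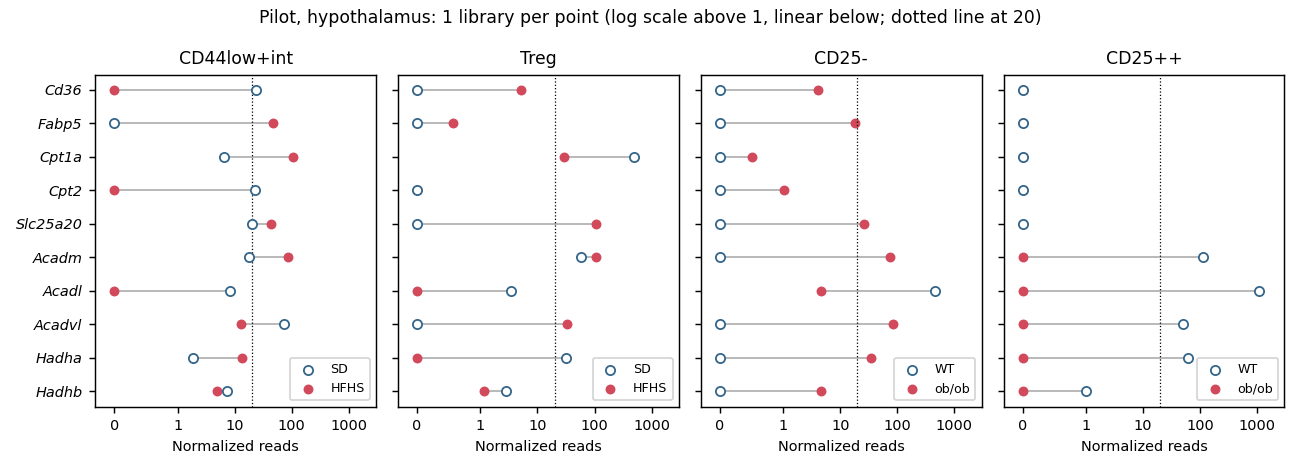
Normalized reads of the 10 genes in the 8 pilot libraries (log scale above 1, linear below), with the 2 libraries of each comparison joined by a line and a dotted line at the minimum of 20. Many genes stand at 0 in 1 library of a pair and above the minimum in the other, and Cpt1a runs in opposite directions in CD44low+int cells and Treg.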

How the data were processed

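Sorted T cells were profiled by RNA-seq in 59 replicated libraries and 8 pilot libraries. For the replicated experiment the authors deposited Salmon output per RefSeq name (mouse build mm10), as estimated counts and as TPM. Counts were rounded after summing over the names of a gene, with 34652 of 35034 names (98.9%) matched to a gene through RefSeq. For the pilot the authors deposited raw counts per gene (BWA, HTSeq), of which 0.391% to 17.1% of reads fell on genes and 4.3% to 67.3% on no feature. Strand settings are not given in the sources used here.

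A gene entered a fit where its counts passed 10 in as many libraries as the smallest group holds. Fits used edgeR 4.0.16 (TMM, quasi-likelihood F test, 2-sided, Benjamini-Hochberg over all genes tested, threshold 0.05) in R 4.3.3. Fits held strain and diet, plus cell type or tissue where compared. SE is the log2 fold change divided by the square root of F. Alternatives were DESeq2 1.42.0, edgeR with size factors from DESeq2, a looser filter (over 10 counts summed over libraries), limma 3.58.1 voom with quality weights, the pool as a replicate block, and leaving out each library or pool. Fits within a strain, without named libraries and for strain by tissue or cell type were added after seeing the data. Pool labels (such as 11_15) pair libraries, as given by the labels, though deviations of same-pool libraries correlated with medians of -0.0110 to 0.0115 over 8393 genes. Pilot libraries were scaled by median-of-ratios size factors over 786 genes. Tables and plots used Python 3.11.15, numpy 2.4.6, pandas 2.3.3, scipy 1.17.1 and matplotlib 3.10.9.

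All 10 genes were named, the up to 6 pathway genes with the smallest p among those called per comparison, and the 3 genes most like Fabp5, Cpt1a and Hadha, of which 1 is not reported here. Members and lists were chosen with earlier results of these data known. The fits were tested on simulated data. Intervals cover counting error only.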

Additional observations from a re-analysis of the deposited data

Results flagged for a closer look

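In groups of 4 libraries, the gap of the highest or lowest library to its nearest neighbour was taken as a share of the group's range. On the log2(CPM + 1) scale this share was above Dixon's 95% critical value in 15 of 104 groups of a member's values. Chance gives about 1 in 20 for normally distributed values. The values printed below are CPM. In 8 of the 15 the other 3 libraries were all at 0, so these values are not such a set and the count is not read against chance. All 15 were in Treg. In rest brain Treg of C57Bl/6J on SD the lowest library stood apart for Fabp5 (0 in pool 11_15, 37.9 to 72.5 in the others), Acadm (0 in pool 01_05, 69.0 to 143 in the others) and Acadvl (76.8 in pool 67_71, 134 to 150 in the others).

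In hypothalamic Treg of C57Bl/6J on SD the pool 11_15 was highest for Cd36 (224), Cpt1a (171), Cpt2 (27.0) and Slc25a20 (85.4), with the others at 0 to 0.0548. This is the library with endothelial markers at 8165 CPM. On HFHS diet the pool 72_76 was highest for Cpt1a (37.3) and Hadha (60.6), with the others at 0 to 0.0858.

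In hypothalamic Treg of Balb/c on HFHS diet Acadm was at 117 in pool 16_20 and 0 in the others, and Acadvl at 0.537 in pool 26_31 and 124 to 138 in the others. On SD, Fabp5 (57.9) and Acadl (302) were highest in pool 37_41, and Slc25a20 (347) and Acadm (243) in pool 42_46, with the others at 0 to 0.0977.

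The strain effect on Fabp5 in Tconv differed between tissues, by -1.34 on the log2 scale (adjusted p = 0.0459, edgeR), as tested after the strain results were seen.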

How the results depend on the processing

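The 3 strain calls in rest brain Tconv (Fabp5, Acadvl, Hadha) were made by DESeq2, DESeq2 size factors, the looser filter and limma-voom too. Members called otherwise moved as follows. DESeq2 called 1 for diet and for strain by diet in hypothalamic Treg (Acadvl), 1 for cell type in the hypothalamus, 2 for tissue in Treg, 1 for cell type by tissue (Cpt2) and 1 for strain by cell type (Hadha). limma-voom called 8 for cell type in the hypothalamus, 1 in the rest brain (Acadvl, not Hadha), 0 for tissue in Tconv, 6 in Treg and 8 for cell type by tissue, where Fabp5 (-4.01 for cell type in the hypothalamus, -3.30 for cell type by tissue) and Acadm (-5.38 for cell type by tissue) turned negative.

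With the pool as a replicate block 3 were called for cell type in the hypothalamus, 0 in the rest brain, 0 for tissue in Tconv and 2 for cell type by tissue, and tissue in Treg stayed at 0. The block was not fitted in the other comparisons. With more than 10 counts in total 3 were called for tissue in Tconv, 3 for cell type in the rest brain, 1 for cell type by tissue and 0 for strain by tissue. Cd36 was among the 3 in both (-4.17 for tissue in Tconv, -3.52 for cell type), at levels of at most 0.434 CPM in Tconv. Without the 2 hypothalamic Treg libraries with other cells' markers 2 were called for cell type in the hypothalamus, 1 for tissue in Treg and 1 for cell type by tissue. Over all genes these fits called 1515 of 11519, 1106 of 12141 and 1773 of 14511, in the same order. C57Bl/6J alone gave 0 for cell type in the rest brain and 0 for tissue in Tconv, where Balb/c alone gave 3. In pilot Treg a minimum of 20 reads in both libraries left 1 past 2-fold, and in the other 3 pilot comparisons no member.

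Leaving out 1 library or pool gave 2 to 3 calls for strain in rest brain Tconv, 0 to 2 for cell type in the hypothalamus, 1 to 2 in the rest brain, 0 to 1 for tissue in Tconv, 0 to 1 in Treg, 0 to 1 for cell type by tissue and 0 to 2 for strain by tissue. Hadha lost its cell type call without Balb/c pools 15_21, 16_20, 47_25, 32_36 or 37_41 or C57Bl/6J pool 77_80. Without the C57Bl/6J pool 11_15 Cpt1a (-7.43, adjusted p = 0.0143) and Cpt2 (-7.97, 0.000238) were called for cell type in the hypothalamus, Cpt2 for tissue in Treg (-8.63, 0.00446) and Cpt2 for cell type by tissue (-8.42, 0.0004). Calls over all genes moved by over 1.5 times in many comparisons. DESeq2 called 16, 12, 180 and 327 genes for diet (hypothalamic and rest brain Tconv, then Treg) against 0 by edgeR, 165, 668, 1328 and 577 for strain by diet against 0, 75, 0 and 0, 542, 250 and 303 for strain in hypothalamic Tconv and Treg and rest brain Treg against 228, 3 and 35, 1605 for cell type in the hypothalamus against 872, 1197 for tissue in Treg against 621, 1242 for cell type by tissue against 1907 and 1255 for strain by cell type against 670. limma-voom called 7329, 3492, 4734 and 5913 for cell type in the hypothalamus and the rest brain, tissue in Treg and cell type by tissue, against 872, 2094, 621 and 1907. The looser filter called 5265 for cell type in the rest brain, 1422 in the hypothalamus, 2892 for cell type by tissue and 6990 for tissue in Tconv, against 2094, 872, 1907 and 2162. The block called 5543 for cell type in the hypothalamus, 115 for tissue in Tconv, 0 in Treg and 1241 for cell type by tissue. C57Bl/6J alone gave 408 for cell type in the rest brain and 1 for tissue in Tconv, where Balb/c alone gave 2404 and 3014. Treg libraries with more than 8000 genes gave 3656 for cell type in the rest brain. For strain by diet in rest brain Tconv DESeq2 size factors gave 146, limma-voom 216 and the looser filter 35, against 75. Leaving out 1 library or pool gave 916 to 1489 for cell type in the hypothalamus and 362 to 1202 for tissue in Treg. DESeq2's size factors moved the median of all genes by over 0.1 in 4 comparisons (diet in hypothalamic Treg 0.19 to 0.03, strain there -0.28 to -0.16, cell type by tissue -0.08 to -0.26, strain by cell type 0.24 to 0.35) and changed no call of a member. The causes were not tested. Few genes were detected in most hypothalamic Treg libraries (median 4479.5).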
